A study of Mus musculus with 8 samples.

Results

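The 10 genes described here encode receptors of interleukin-6 (IL-6) and interleukin-1 (IL-1) type cytokines and the factors that carry their signal to the acute phase genes of the liver. They were chosen by symbol, and all 10 were found among the 56884 genes of the count tables. Liver poly(A) RNA of aged, obese C57BL/6J female mice was sequenced from 3 DIO mice and 5 DIO + DHA mice, each mouse giving 1 library. All had been fed a diet in which lipids gave 45% of the energy for 4 months and stayed on such a diet until 18 months of age, when liver was taken after an overnight fast. In the DIO + DHA group, a fish oil concentrate took the place of 15% by weight of the dietary lipids after those first 4 months. The concentrate held 683.4 mg of docosahexaenoic acid (DHA) and 46.7 mg of eicosapentaenoic acid per g. Its tocopherols were also added to the diet of the DIO group. No lean group was among the samples analysed here, so each difference is between a pair of obese groups.

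In the acute phase response, IL-6 binds its receptor subunit IL-6Rα (Il6ra), and the complex recruits the signal-transducing subunit gp130 (Il6st), which is shared by several cytokines. Kinases of the JAK family bound to gp130 then activate the transcription factor STAT3, which drives fibrinogen and other acute phase genes of hepatocytes and its own feedback inhibitor Socs3. IL-1 binds IL-1R1 (Il1r1), recruits the accessory chain IL-1RAcP (Il1rap) and acts with IL-6 on genes such as those of serum amyloid A, whose promoters are also bound by C/EBPβ (Cebpb) and C/EBPδ (Cebpd).

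In the DIO + DHA group, transcripts of the chains binding IL-1 and IL-6 were lower, Il1r1 by 57.6% and Il6ra by 36.2%. Those of Cebpb, by 51.8%, Stat3, to 0.600 of the DIO level, and Cebpd, by 29.9%, were lower too. Their partner chains Il6st and Il1rap, the other receptor chains Lifr and Osmr, and Socs3 did not pass the test. The test was the quasi-likelihood test of edgeR across 12412 genes, with p-values adjusted by the method of Benjamini and Hochberg, and a gene was called at an adjusted p under 0.05. By that rule 5 of the 10 genes were lower, where 7.28% of all tested genes were, and 0 were higher, where 7.89% of all tested genes were. At an unadjusted p under 0.05 the numbers were also 5 and 0, where 12.2% of all tested genes were lower and 13.1% higher. In the 5 called genes every DIO + DHA library lay below every DIO library, an arrangement found in 8.88% of all tested genes. The median log2 fold change of the 10 genes was -0.50, beside 0.0013 over all tested genes. With limma-voom at a log-odds B above 0, the rule of the study's methods, 4 of the 10 were lower, where 3.2% of all tested genes were, and the gene not called was Cebpd.

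**Figure D1:**
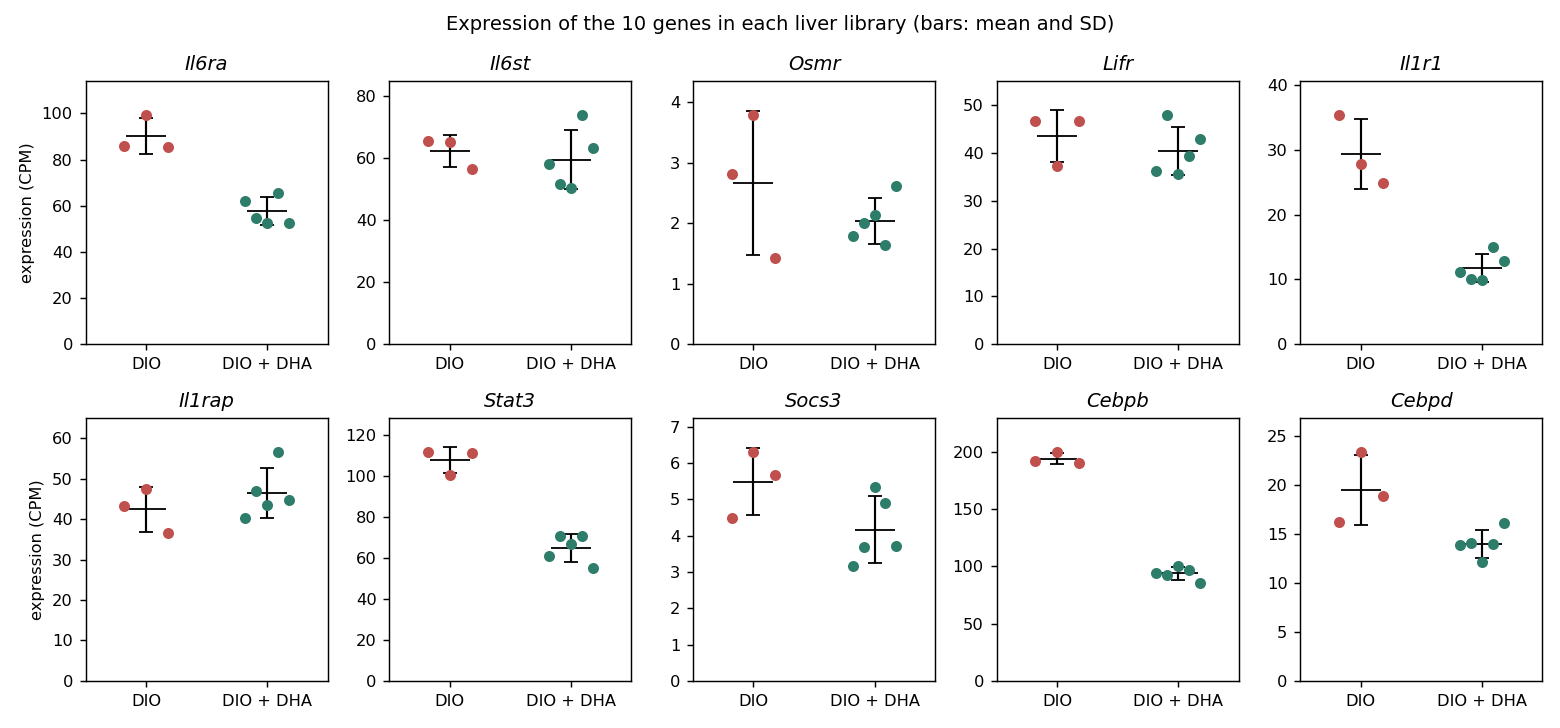
Expression in CPM (counts scaled to an equal total in every library, each y axis from 0) of the 10 genes, with 1 point per library, 3 DIO and 5 DIO + DHA, and bars for the mean and SD. The groups did not overlap for Il6ra, Il1r1, Stat3, Cebpb and Cebpd, and overlapped for the other 5 genes.

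The libraries held 1723800 to 5690347 counts. DIO replicate 1 was the shallowest, and 1 count stood for 0.561 CPM in it and for 0.177 to 0.356 CPM in the others. The labelled tissue showed in 8 hepatocyte markers, whose summed expression was 115926 to 122326 CPM in the DIO libraries and 133941 to 145846 CPM in the DIO + DHA libraries. Of the 8, 4 were higher and 0 lower. Over all tested genes, 7.89% were higher and 7.28% lower, and these shares stand beside all counts of called markers here. Markers of other cells differed between the groups as well. The 12 markers of Kupffer cells and macrophages summed to 868 to 972 CPM in the DIO group and 501 to 536 CPM in the DIO + DHA group, with 10 of the 12 lower, 1 higher (Marco) and none at 0 in all libraries. In bulk tissue, fewer cells of a type and less RNA per cell cannot be told apart. The 10 markers of endothelial cells summed to 220 to 236 CPM and 163 to 189 CPM, with 2 lower, and the 10 of stellate cells to 476 to 516 CPM and 421 to 450 CPM, with 2 lower. The 7 T and NK cell markers summed to 35.6 to 42.6 CPM and 13.3 to 16.6 CPM, with 4 of 5 tested lower. Of these, Cd8a had 7, 17 and 22 counts in the DIO libraries and 1 to 7 in the DIO + DHA libraries. It passed the count filter only through the DIO group, so its call adds no weight to the 4. The 8 skeletal muscle markers rose from 30.1 to 35.4 CPM in the DIO libraries to 1180 to 1236 CPM in the DIO + DHA libraries. Markers of squamous epithelium summed to 23.9 to 29.2 CPM and 73.8 to 81.6 CPM, and those of adipocytes to 7.79 to 12.9 CPM and 53.5 to 60.2 CPM. In the DIO libraries the squamous sum was nearly all Dsp (29.2, 23.8 and 25.3 CPM), which was not called. Krt13 had 0 counts in every DIO library and 13.3 to 18.5 CPM in the DIO + DHA libraries. The summed markers of cholangiocytes, B cells and neutrophils overlapped between the groups. The part of these other cells in the differences of receptors and factors was not tested. When the scaling left out the muscle and epithelium markers and the genes that changed most, 5 of the 10 genes were again lower.

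Il6ra encodes the chain that binds IL-6 and gives the receptor its specificity. It (ENSMUSG00000027947.12) lies on the minus strand of chromosome 3 (GRCm39), from 89771366 to 89820503. Its expression was 85.9, 99.1 and 85.3 CPM in DIO replicates 1, 4 and 5. In DIO + DHA replicates 1, 2, 4, 5 and 6 it was 62.2, 54.8, 52.3, 65.7 and 52.5 CPM. The highest DIO + DHA library, replicate 5, thus stayed below the lowest DIO library. The log2 fold change was -0.65 (standard error 0.09, 95% interval -0.84 to -0.46) and the adjusted p of the edgeR test was 1.74e-07. When each of the 8 libraries was left out in turn, it ranged from -0.71 to -0.56. The antisense transcript Gm42809 overlaps 2.8% of the exon bases of Il6ra, and it had 1 to 5 counts per library.

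Il6st, the gp130 chain on which all cytokines of this family depend, overlapped between the groups. The gene (ENSMUSG00000021756.13) lies on the plus strand of chromosome 13 from 112600604 to 112646620. The DIO libraries were at 65.7, 65.1 and 56.5 CPM and the DIO + DHA libraries at 58.2, 51.8, 50.6, 73.9 and 63.2 CPM. Both the lowest and the highest value belonged to the DIO + DHA group, and the highest value of all came from DIO + DHA replicate 5. With a log2 fold change of -0.04 (edgeR adjusted p = 0.859), its 95% interval of -0.25 to 0.17 did not reach the value of Il6ra.

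The counts of both chains can also be set against each other within a library, which removes the scaling between libraries. The ratio of Il6ra to Il6st counts was 1.31, 1.52 and 1.51 in the DIO libraries, and 1.07, 1.06, 1.04, 0.889 and 0.831 in DIO + DHA replicates 1, 2, 4, 5 and 6. Its mean was 1.45 ± 0.121 (SD, n = 3) and 0.976 ± 0.109 (SD, n = 5), and the groups did not overlap. These ratios were chosen after the values had been seen and are given without a test. Since most reads come from 3′ ends and were not divided by length, a ratio of counts is not a ratio of molecules, and only its shift between groups can be read.

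Lifr encodes the receptor chain of leukaemia inhibitory factor, which pairs with gp130 and also exists in mice as a secreted form. The gene (ENSMUSG00000054263.13) lies on chromosome 15 from 7120095 to 7226970. It was at 46.6, 37.2 and 46.6 CPM in the DIO libraries and at 36.2, 47.8, 35.6, 39.3 and 42.9 CPM in the DIO + DHA libraries, so that the groups overlapped almost fully. A log2 fold change of -0.09 had a 95% interval of -0.32 to 0.13 (edgeR adjusted p = 0.685). Deposited counts are per gene, so membrane-bound and secreted forms of Lifr, Il6ra or Il1rap were not told apart.

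Osmr, the oncostatin M receptor chain, lies close to Lifr on chromosome 15, from 6843058 to 6904450 (ENSMUSG00000022146.13). It was near the count minimum, with 5, 21 and 8 counts in the DIO libraries and 6 to 12 counts in the DIO + DHA libraries. Expression was 2.81, 3.78 and 1.42 CPM in the DIO group, a spread that took in all 5 DIO + DHA libraries, which lay between 1.64 and 2.62 CPM. Its log2 fold change of -0.37 had a 95% interval of -1.14 to 0.40 (edgeR adjusted p = 0.620) and turned to 0.18 without DIO replicate 4.

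Il1r1, the signalling receptor of IL-1α and IL-1β, had the largest change of the 10 genes in the edgeR fit. It (ENSMUSG00000026072.13) lies on the plus strand of chromosome 1 from 40264240 to 40356417. Its expression was 35.4, 27.9 and 24.97 CPM in DIO replicates 1, 4 and 5. In the DIO + DHA group it was 11.1, 10.03, 9.97, 15.0 and 12.9 CPM. The lowest DIO library stood well above the highest DIO + DHA library, and replicate 1 of the DIO group, the shallowest library, was the highest of all. This gave a log2 fold change of -1.24 (standard error 0.15, 95% interval -1.54 to -0.93) and an edgeR adjusted p of 3.29e-09. Only 1.43% of the tested genes had a fold change as low or lower. Without DIO replicate 1 the value was -1.14 and the call held.

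The accessory chain Il1rap, without which IL-1R1 does not signal, was not called in either direction. Located on chromosome 16 from 26400454 to 26548867 (ENSMUSG00000022514.15), it was at 43.2, 47.5 and 36.5 CPM in the DIO libraries and at 40.4, 46.8, 43.4, 56.6 and 44.7 CPM in the DIO + DHA libraries. These ranges overlapped, with the lowest value in the DIO group and the highest in the DIO + DHA group. With a value of 0.13, the log2 fold change had a 95% interval of -0.09 to 0.36 (edgeR adjusted p = 0.505). Over 6.91% of its exon bases, which reach to its 3′ end, Il1rap overlaps the antisense gene Gm20319, and reads there could not be assigned.

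In the DIO libraries the ratio of Il1r1 to Il1rap counts was 0.818, 0.587 and 0.684. In the DIO + DHA libraries it was 0.275, 0.214, 0.230, 0.264 and 0.288. All 5 DIO + DHA ratios were thus below the lowest DIO ratio, with means of 0.254 ± 0.0310 (SD, n = 5) and 0.697 ± 0.116 (SD, n = 3). As for the IL-6 receptor, it was the ligand-binding chain whose counts were lower, while those of the partner chain overlapped between the groups. This did not extend to Lifr and Il11ra1, which also bind cytokines and were not called.

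**Figure D2:**
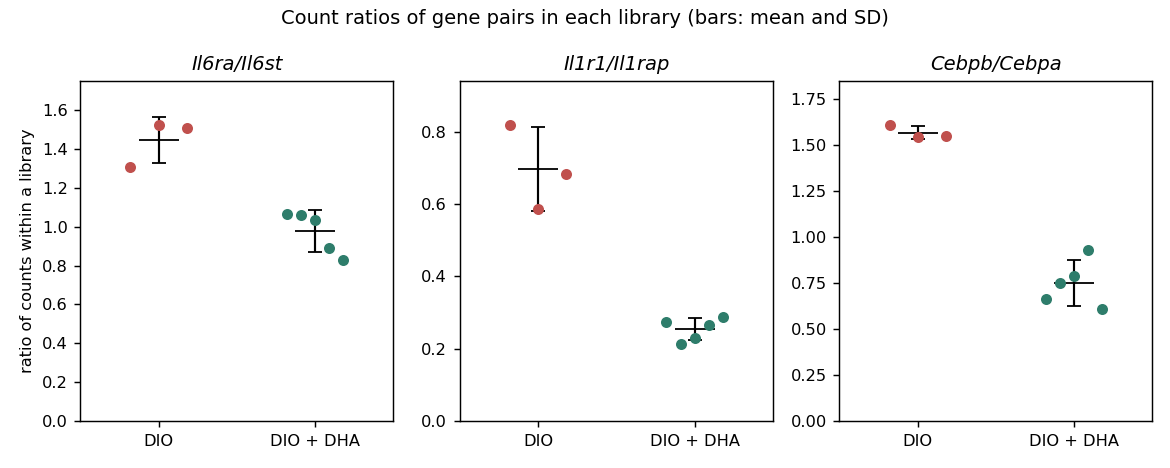
Ratio of the counts of paired genes within each library (y axes from 0), with 1 point per library, 3 DIO and 5 DIO + DHA, and bars for the mean and SD. Of 5 ratios computed, 3 are plotted, Il6ra/Il6st, Il1r1/Il1rap and Cebpb/Cebpa, and in these every DIO + DHA library lay below every DIO library, while Socs3/Stat3, not plotted, overlapped between the groups.

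Stat3 encodes the transcription factor that gp130 receptors activate in hepatocytes. Its locus (ENSMUSG00000004040.17) is on the minus strand of chromosome 11 from 100775924 to 100830366. The DIO libraries were at 112, 101 and 111 CPM, and the DIO + DHA libraries at 61.0, 70.6, 66.6, 70.8 and 55.1 CPM. Both groups were tight and far apart, with means of 108 ± 6.32 CPM and 64.8 ± 6.72 CPM (SD, n = 3 and n = 5). The log2 fold change was -0.74 (standard error 0.09, 95% interval -0.92 to -0.56), and the edgeR adjusted p was 2.2e-09. Leaving out the libraries in turn gave -0.78 to -0.69. These values describe the transcript, and the phosphorylation by which STAT3 is activated was not measured. Over 0.756% of its exon bases Stat3 overlaps Stat5a. These are the last 72 bases at its 3′ end, the side from which most reads come, and reads there were not assigned to either gene.

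Socs3, whose product binds gp130 and ends JAK signalling, is a direct STAT3 target and lies further along the same chromosome from 117856905 to 117860873 (ENSMUSG00000053113.4). It was low, with 8, 35 and 32 counts in the DIO libraries and 11 to 21 counts in the DIO + DHA libraries. Expression was 4.49, 6.30 and 5.67 CPM in the DIO group and 3.17, 3.68, 5.34, 4.91 and 3.70 CPM in the DIO + DHA group. The mean was lower in the latter, but DIO + DHA replicates 4 and 5 lay above DIO replicate 1. The log2 fold change of -0.49 (standard error 0.26) had a 95% interval of -1.01 to 0.04, and with an adjusted p of 0.248 in the same edgeR test Socs3 was not called. That interval holds both 0 and the -0.74 of Stat3. The ratio of Socs3 to Stat3 counts overlapped between the groups, at 0.0402 to 0.0626 in the DIO libraries and 0.0519 to 0.0802 in the DIO + DHA libraries.

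Cebpb gave the smallest p-value of the 10 genes. C/EBPβ was first known as the nuclear factor of IL-6 and activates many acute phase promoters. The single-exon gene (ENSMUSG00000056501.4) lies on the plus strand of chromosome 2 from 167530835 to 167532338. Its expression was 192, 199.9 and 191 CPM in the DIO libraries, which differed little from each other. In the DIO + DHA libraries it was 94.6, 92.3, 100.05, 96.8 and 85.6 CPM, all below the lowest DIO value by a wide gap. Between the groups, the log2 fold change was -1.05 (standard error 0.08, 95% interval -1.21 to -0.90) at an edgeR adjusted p of 5.35e-17. The antisense gene Peds1 shares 20.7% of the exon bases of Cebpb, between 597 and 908 bases from its 3′ end, where reads were not assigned to either gene. Peds1 itself had a log2 fold change of 0.28 (edgeR adjusted p = 0.217).

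Cebpd, which is induced early in the acute phase, lies on chromosome 16 from 15705150 to 15708895 (ENSMUSG00000071637.6). It was at 16.3, 23.4 and 18.9 CPM in the DIO libraries and at 13.9, 14.0, 12.1, 14.0 and 16.1 CPM in the DIO + DHA libraries. The groups were separate only by a narrow gap, between 16.1 CPM in DIO + DHA replicate 6 and 16.3 CPM in DIO replicate 1. The log2 fold change of -0.51 (standard error 0.15, 95% interval -0.82 to -0.21) passed with an adjusted p of 0.0137 in the same edgeR test. It was not called without DIO replicate 4, when it was -0.35 (adjusted p = 0.275), nor by the Wald test of DESeq2 (adjusted p = 0.0693). Spidr, on the opposite strand, overlaps Cebpd over 15.0% of its exon length and had 1 to 6 counts per library.

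The founding member of the C/EBP family in hepatocytes, Cebpa, gave a contrast to Cebpb. It was at 124 ± 5.06 CPM in DIO livers and 128 ± 15.7 CPM in DIO + DHA livers (SD, n = 3 and n = 5), and was not called (log2 fold change 0.04, edgeR adjusted p = 0.851). The ratio of Cebpb to Cebpa counts was 1.61, 1.54 and 1.55 in the DIO libraries and 0.662, 0.748, 0.789, 0.930 and 0.607 in the DIO + DHA libraries. Every DIO + DHA library thus had fewer Cebpb than Cebpa counts, and every DIO library had more. In the DIO + DHA group, the ratio of Cebpd to Cebpb counts was higher, at 0.121 to 0.188 against 0.0848 to 0.117, without overlap.

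**Figure D3:**
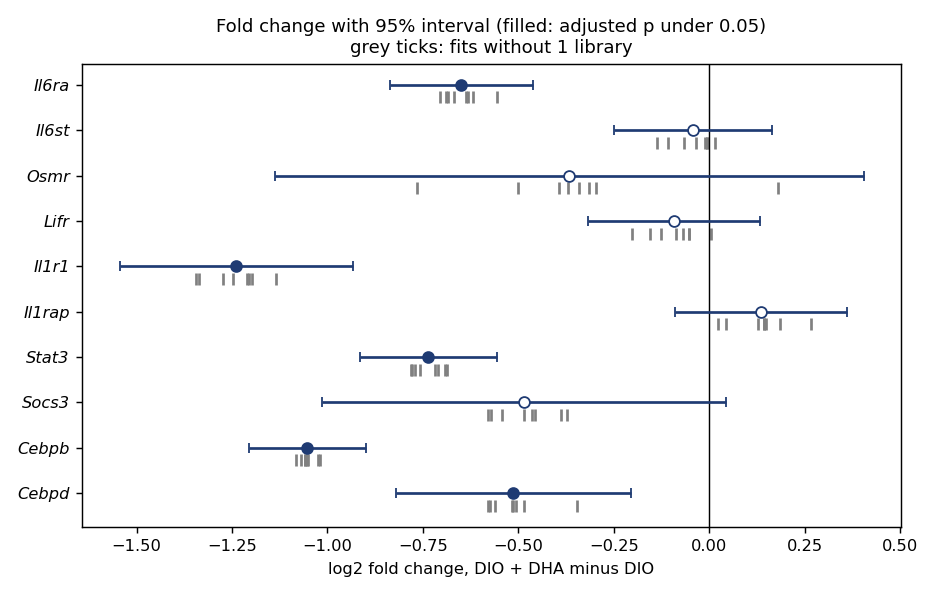
Log2 fold change of each gene, DIO + DHA minus DIO, from the edgeR fit, with its 95% interval (filled points passed at an adjusted p under 0.05) and grey ticks for the 8 fits that each left out 1 library. The intervals of the 5 filled points, from -1.24 for Il1r1 to -0.51 for Cebpd, lie below 0, and the other 5 include it.

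Because Il6ra, Il1r1, Stat3 and Cebpb were lower together, their promoters are shown with that of Socs3, the classical STAT3 target. Promoters were taken from RefSeq, which held 9 of the 10 genes, and were placed on GRCm39 by an exact match of their bases. Cebpd was not among them. The windows ran from 250 bases before to 50 bases after an annotated start, and the 250 bases before the start are printed 5′ to 3′ in the direction of transcription. Capitals mark a match to the STAT motif TTCNNNGAA in Socs3 and to the C/EBP motif TTGCNNAA in Il1r1. The printed stretches run over chr3:89820504-89820753 (minus strand) for Il6ra, chr1:40263990-40264239 (plus strand) for the first of 2 annotated starts of Il1r1, chr11:100830367-100830616 (minus strand) for Stat3, chr2:167530585-167530834 (plus strand) for Cebpb and chr11:117860193-117860442 (minus strand) for Socs3.
Il6ra: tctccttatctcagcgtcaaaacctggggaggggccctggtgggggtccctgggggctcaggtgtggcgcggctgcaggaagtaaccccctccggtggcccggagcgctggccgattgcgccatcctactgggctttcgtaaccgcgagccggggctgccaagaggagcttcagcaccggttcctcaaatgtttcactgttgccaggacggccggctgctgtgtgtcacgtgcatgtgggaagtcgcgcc
Il1r1: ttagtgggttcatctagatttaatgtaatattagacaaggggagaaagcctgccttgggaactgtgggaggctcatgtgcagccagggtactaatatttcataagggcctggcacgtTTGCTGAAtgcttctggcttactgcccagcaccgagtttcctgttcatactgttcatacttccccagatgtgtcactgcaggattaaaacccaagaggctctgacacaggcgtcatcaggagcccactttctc
Stat3: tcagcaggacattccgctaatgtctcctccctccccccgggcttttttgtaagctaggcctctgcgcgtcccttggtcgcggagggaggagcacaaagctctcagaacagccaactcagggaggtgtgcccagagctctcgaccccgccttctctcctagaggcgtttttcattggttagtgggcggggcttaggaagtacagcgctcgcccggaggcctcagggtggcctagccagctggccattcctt
Cebpb: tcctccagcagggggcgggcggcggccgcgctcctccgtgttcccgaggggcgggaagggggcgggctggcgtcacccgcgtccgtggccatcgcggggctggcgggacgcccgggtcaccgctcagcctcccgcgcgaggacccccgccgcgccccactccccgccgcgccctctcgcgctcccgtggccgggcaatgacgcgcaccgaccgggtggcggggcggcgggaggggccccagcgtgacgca
Socs3: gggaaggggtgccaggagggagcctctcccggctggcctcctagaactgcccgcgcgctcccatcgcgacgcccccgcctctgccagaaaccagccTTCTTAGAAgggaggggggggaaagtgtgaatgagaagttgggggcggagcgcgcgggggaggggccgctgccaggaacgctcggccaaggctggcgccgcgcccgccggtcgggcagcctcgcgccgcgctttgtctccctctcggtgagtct

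Both strands of the 300-base windows were searched for 6 motifs. The STAT motif, which reads the same on both strands, had 1 match among the 11 windows of the genes, TTCTTAGAA at 154 bases before the start of Socs3, and 8.3% of all 32851 promoters in the table held one. The C/EBP motif matched once, as TTGCTGAA at 133 bases before the start of Il1r1, and 10.8% of all promoters held it. The motif TGANTCA of AP-1 (7.81% of all promoters) was found in the window of Osmr, and TATAAA (13.6%) in that of Cebpb, 21 bases past the annotated start. The motifs GGGNNTTTCC of NF-kappaB (1.63%) and TGACGTCA of CREB (1.79%) had no match. These are matches of letters in a short window and do not show binding. In the 300-base windows of the genes printed, the GC content was 80.7% for Cebpb, 73.3% for Socs3, 66.0% for Il6ra, 60.7% for Stat3 and 49.3% for the start of Il1r1 that is shown (63.3% for its other start), beside a median of 52.7% over all promoters in the table.

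The cytokines that these receptors bind were hardly seen in the liver RNA. Il6 had 0 counts in all 8 libraries, and the limit of 3 counts that such a zero allows stands for 0.232 CPM over the summed DIO libraries and 0.151 CPM over the summed DIO + DHA libraries. Il11, Lif, Osm, Clcf1, Cntf, Il27 and Ebi3, ligands or ligand subunits of the gp130 family, had at most 4 counts in a library and were not tested. Of the 9 listed ligands only Ctf1, the gene of cardiotrophin 1, was tested, with 2.73 ± 0.847 CPM and 2.86 ± 0.731 CPM (SD, n = 3 and n = 5) and a log2 fold change of 0.15 (edgeR adjusted p = 0.856). Il1b was at 1.57 ± 0.123 CPM and 1.78 ± 0.535 CPM (SD, n = 3 and n = 5), at a log2 fold change of 0.20 (edgeR adjusted p = 0.844), and Il1a at 1.09 ± 0.189 CPM and 1.93 ± 0.793 CPM, with 0.76 (adjusted p = 0.356). The transcripts of IL-1 were thus present at a few counts per library, with no call in either direction. Proteins that reach the liver by the blood were not measured.

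Among the other receptor chains of the gp130 family, Il11ra1, which binds IL-11, was at 29.5 ± 5.06 CPM in DIO livers and 33.4 ± 2.83 CPM in DIO + DHA livers (SD, n = 3 and n = 5), at a log2 fold change of 0.14 (edgeR adjusted p = 0.508). Il27ra was below 1 CPM in both groups, with -0.71 (adjusted p = 0.582) and was not called.

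Of 28 listed genes that act between the receptors and the nucleus or hold them back, 27 were tested, 6 were lower and 2 higher. Of all tested genes, 7.28% were lower and 7.89% higher, and these shares also stand beside the counts of each list that follows. The median log2 fold change of the 27 genes, 0.035, was near that of all genes. The kinase Jak1, which sits on gp130, was at 51.0 ± 2.28 CPM and 43.8 ± 3.71 CPM (SD, n = 3 and n = 5), with a log2 fold change of -0.22 that was not called (adjusted p = 0.167). Stat2, known from interferon signalling, fell by a small amount (-0.29), although its groups overlapped. Stat5a, Stat5b and Stat6 had log2 fold changes of 0.15, 0.13 and 0.035 and were not called. Ptpn1, a phosphatase that acts on JAK kinases and on the insulin receptor, was also lower (-0.61), as were Ptpn6 (-0.38) and Jak3 (-0.76), both known from blood cells, and the adaptor Grb2 (-0.37). The Jak3 libraries overlapped between the groups. Opposite in direction were Socs2, a growth hormone target and inhibitor, which rose from 15.1 ± 1.42 to 25.4 ± 1.79 CPM, a log2 fold change of 0.77, and the adaptor Gab1, with 0.96.

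From the IL-1 family, 12 other genes were listed and 8 tested, of which 3 were lower and the other 5 were not called. Il18bp, which encodes the secreted protein that traps IL-18, fell from 44.8 ± 3.99 CPM to 19.6 ± 1.46 CPM (SD, n = 3 and n = 5), a log2 fold change of -1.20 (edgeR adjusted p = 6.2e-12). Also lower were its ligand Il18 (-0.60) and Sigirr (-0.38), an inhibitory receptor of the family. Il1rn, the antagonist that competes for IL-1R1, was at 13.3 ± 0.977 and 16.8 ± 1.67 CPM, with a log2 fold change of 0.33 that did not pass (adjusted p = 0.191) although all 5 DIO + DHA libraries lay above the DIO libraries. Of 14 adaptors and kinases behind the receptor, 2 were lower and 12 were not called, with a median of -0.038. These were the kinase Irak4, at 17.4 ± 2.85 and 10.1 ± 2.45 CPM (-0.71), and the adaptor Myd88 (-0.53), whose groups overlapped. Irak1, a further kinase, and Tab2, an adaptor, had log2 fold changes of 0.11 and 0.044 and were not called.

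Of 11 other C/EBP and hepatocyte factors, all tested, 2 were lower and 1 was higher. Hnf4a, a nuclear receptor that maintains hepatocyte identity, fell from 241 ± 10.9 CPM to 167 ± 10.02 CPM (SD, n = 3 and n = 5), a log2 fold change of -0.53 (edgeR adjusted p = 7.3e-08). Cebpg was lower too (-0.28). Foxa1 rose from 3.27 ± 0.619 to 6.18 ± 1.05 CPM, a log2 fold change of 0.98, while Foxa3 was at 64.4 ± 14.9 and 78.2 ± 14.7 CPM and was not called.

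Among 14 genes known to be induced through STAT3 in various cells, 8 were lower, where 7.28% of all tested genes were. In the other direction, 1 was higher, where 7.89% of all tested genes were, and the median of the list was -0.43. Nnmt, an abundant methyltransferase of hepatocytes, fell from 655 ± 44.6 CPM to 403 ± 26.8 CPM (SD, n = 3 and n = 5), a log2 fold change of -0.70 (edgeR adjusted p = 1.7e-12). Lower as well were the kinases Pim3 (-0.61) and Pim1 (-0.50), Bcl3, a partner of NF-kappaB (-0.52), and Mcl1, a survival factor (-0.27). Timp1, an inhibitor of metalloproteinases, was also lower (-2.01), from a level of 1.39 ± 0.251 CPM. It had 3, 7 and 7 counts in the DIO libraries and 0 to 2 in the DIO + DHA libraries. Timp1 thus passed the filter only through the DIO group, so its call adds no weight to the 8. The Wald test of DESeq2 (adjusted p = 0.118) and limma-voom (B = -1.69) did not call it. Ccnd1, which encodes cyclin D1, went the other way, from 17.5 ± 1.62 to 29.1 ± 3.08 CPM, and Fgl1, a hepatocyte product that IL-6 induces, had a log2 fold change of -0.16 and was not called. Over these pathway lists, 77 of 92 genes were tested, 21 were lower and 4 higher, where 7.28% and 7.89% of all tested genes were. Their median of -0.057 was near that of all genes. In place of these 25 calls there were 13 without DIO replicate 4, 14 without DIO replicate 5, 13 by the Wald test of DESeq2 and 8 by limma-voom at B above 0. In the same order, calls over all genes were 1456, 1432, 1317 and 860, in place of 1883.

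The genes that lie downstream were described by 3 lists. Of 12 acute phase genes that answer IL-1 together with IL-6, 10 were lower, with a median log2 fold change of -1.21. The largest were those of Lcn2 (-2.08), Saa1 (-2.01), Orm2 (-1.94), Saa2 (-1.88) and Saa3 (-1.62), and Hpx, an abundant haem carrier, was at -1.004. Crp, at 395 ± 5.82 and 419 ± 32.8 CPM, was not called. Of 13 tested genes listed as class 2, which answer IL-6 type cytokines, 12 were lower, with a median of -0.51. Whether some of class 2 also answer IL-1 or other cytokines was not tested. They included the fibrinogen chains Fga (-0.57), Fgb (-0.51) and Fgg (-0.51), Serpina3n (-0.69), Itih4 (-0.85), Apcs (-0.997) and Steap4 (-1.73). The exception was Hamp, the gene of hepcidin and itself a known STAT3 target, which rose from 242 ± 13.7 CPM to 721 ± 55.3 CPM (SD, n = 3 and n = 5), a log2 fold change of 1.57 (edgeR adjusted p = 2.6e-25). Of 8 negative acute phase genes, which fall in inflammation, Apoa1 (0.52), Ahsg (0.40) and Rbp4 (0.36) rose, Trf (-0.42) and Serpina6 (-0.35) fell, and Alb and Ttr were not called. In all, 24 of the 33 tested acute phase genes were lower and 4 higher, where 7.28% and 7.89% of all tested genes were.

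**Figure D4:**
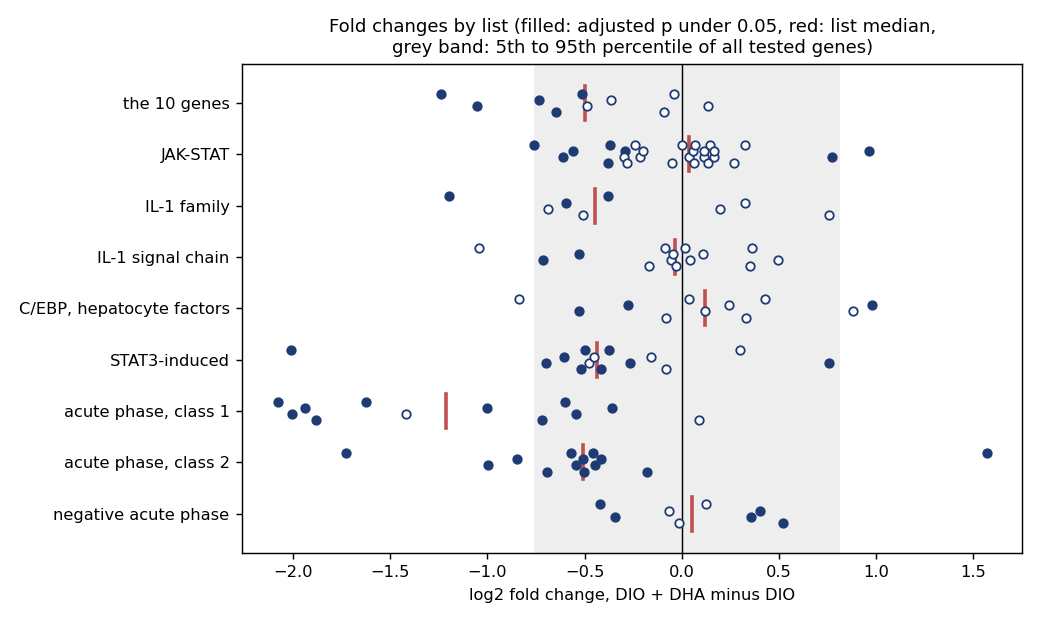
Log2 fold change, DIO + DHA minus DIO, of each tested gene of the lists (filled points passed at an adjusted p under 0.05 in the edgeR fit), with the median of each list in red and the range from the 5th to the 95th percentile of all tested genes in grey. The class 1 acute phase genes have the lowest median, -1.21, while the JAK-STAT genes are centred near 0 with a median of 0.035.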

How the data were processed

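RNA of 8 livers was made into 3′-enriched cDNA with an adapted SCRB-seq protocol. Per the file headers and the study's methods, the authors used STAR 2.7.9a for alignment of trimmed reads to GRCm39 and featureCounts 1.6.0 with GENCODE mouse release 33, and deposited whole-number counts per gene. No strand, multi-mapping or overlap option was set, so reads in stretches shared by 2 genes were left out. The sources used here do not say whether molecular identifiers were collapsed, and limits from counts cover counting error only. Nothing in the labels says more than that each library is a separate mouse, and all carry the same batch number.

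Symbols came from GENCODE release 39. Following the study's methods, genes were dropped when over 50% of libraries had fewer than 5 counts in both groups. Counts were scaled by TMM and tested with edgeR 4.0.16 in R 4.3.3, with robust quasi-likelihood fits. Intervals are 95% t intervals of the log2 fold change. limma 3.58.1 and DESeq2 1.42.0 served as alternatives. The fit was tested on simulated counts. Each of the 13 within-group pairs of libraries exceeded counting error (chi-square per degree of freedom 2.43 to 8.24). The 10 genes, the lists and the markers were chosen with earlier results of these data known. Named are all 10 genes, the called genes of each list (at most the 6 with the largest change) and its 3 most abundant. Stat5a, Stat5b, Stat6, Grb2, Crp, Il1a and Il1b were named after their values had been seen. Some listed genes are not reported here by name.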

Additional observations from a re-analysis of the deposited data

Results flagged for a closer look

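Of 70 values checked for a library that stands apart within the DIO + DHA group (the 10 genes, the count ratios and the named genes of the lists), 1 was flagged, where chance flags about 1 in 20. Foxa3, a hepatocyte transcription factor, was at 103.8 CPM in DIO + DHA replicate 5, above the 68.1 to 77.9 CPM of the other 4 libraries. The same library had the highest Il6ra, Il6st, Il1r1 and Il1rap values of its group. The cause was not tested.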

How the results depend on the processing

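Across the 11 other ways of scaling, filtering or testing, 4 or 5 of the 10 genes were lower and none higher, and in the 8 fits without 1 library the number was also 4 to 5. The gene lost was Cebpd each time, by the Wald test of DESeq2, by limma-voom at B above 0 and without DIO replicate 4. The other 4 called genes were called in all 19 settings. Without 1 library, the log2 fold change of Il6st ranged from -0.14 to 0.014, of Lifr from -0.20 to 0.0039 and of Osmr from -0.76 to 0.18. The other pathway genes depended more on the test. Their number of calls, 25, became 13 by the Wald test of DESeq2, 8 by limma-voom at B above 0 and 13 to 21 without 1 library, with 13 without DIO replicate 4 and 14 without DIO replicate 5. The number of called acute phase genes, 28, ranged from 27 to 29. Calls over all genes fell as well, from 1883 to 1317 by the Wald test and to 860 at B above 0. Without DIO replicate 4 they were 1456, and without DIO replicate 5 they were 1432. At B above 0, 397 in place of 904 genes were lower. With the replicate number as a block, 5 of the 10 genes, 18 other pathway genes and 27 acute phase genes were called. Numbers 1, 4 and 5 occur in both groups, but the deviations of libraries with the same number had correlations of -0.026, -0.073 and -0.054. Of these 6 libraries, 0 correlated best with its own number. The check showed no pairing of the mice by number, but with so few libraries it cannot exclude one. Osmr and Socs3 were limited by their low counts.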

Other observations

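Over the 8 libraries, the tested genes (mean 20 CPM or more) whose log2 CPM was most like that of Stat3 were Hnf4a (Pearson r 0.988), Thrsp (0.986) and Pipox (0.985). For Il1r1 they were Acsm1 (0.990), Arid5b (0.987) and Glud1 (0.979), and for Il6ra they were Baat (0.990), Prg4 (0.976) and Alas1 (0.9751). For Socs3, with its few counts, the values were lower, with Slc16a10 (0.916), Cnn3 (0.912) and Mvp (0.909). All points share the difference between the groups, so these values describe likeness over 3 DIO and 5 DIO + DHA libraries and no more.

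The antisense gene Gm20319, which shares exon bases with Il1rap, was expressed at a level of its own, 35.1 ± 4.11 CPM in DIO livers and 31.2 ± 3.603 CPM in DIO + DHA livers (SD, n = 3 and n = 5), and was not called (log2 fold change -0.16, edgeR adjusted p = 0.433). As counting ignored strand, reads of either gene outside the shared stretch could still come from the other strand.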
